A study of Mus musculus with 9 samples.

Results

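The branched-chain ketoacid dehydrogenase genes and their control were followed in brown adipose tissue as a set of 9 genes, chosen by exact gene symbol: the carrier Slc25a44, the transaminases Bcat1 and Bcat2, the dehydrogenase subunits Bckdha, Bckdhb and Dbt, the kinase Bckdk, the phosphatase Ppm1k and the regulator Klf15. All 9 symbols were among the 24356 listed, and all 9 had a value above 0 in every library, as did 14675 genes in all. The libraries came from mice with a knockout of growth hormone-releasing hormone (GHRH-KO) and from littermate wild-type (WT) controls, all from mixed C57BL6 and 129SV stock and all fed a chow diet. There were 2 KO females, 3 WT females, 2 KO males and 2 WT males, each a separate mouse and each giving 1 poly A+ library, and their ages were not given in the sources used here. Values are the authors' FPKM (fragments per kilobase, scaled to the mapped total), a level per gene length. The groups are named as labelled, and the mice are numbered only to name them.

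Leucine, isoleucine and valine, the branched-chain amino acids, enter the mitochondrion, where the transaminase BCAT2 turns them into branched-chain ketoacids. The branched-chain ketoacid dehydrogenase complex then decarboxylates these in the committed step, with E1 built from BCKDHA and BCKDHB, E2 from DBT, and E3 from DLD, which other dehydrogenase complexes share. The kinase BCKDK phosphorylates E1 and switches the complex off, and the phosphatase PPM1K removes the phosphate and switches it on. Brown fat is known to take up and burn branched-chain amino acids during heat production through the carrier SLC25A44, and KLF15 is a zinc finger transcription factor known for its control of amino acid breakdown.

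Before the results, some facts of the libraries bear on every comparison. The targeted gene, Ghrh, stood at 0.846 FPKM in KO female 1, 0.233 in KO female 2, 0.799 in KO male 1 and 0.470 in KO male 2, and all 5 WT libraries list it at 0. The gene was thus above 0 only in libraries labelled KO, and the source of these fragments was not tested. Gene-level FPKM do not show which exons the fragments came from, and every direction below is therefore one between libraries labelled KO and libraries labelled WT. Brown fat RNA was present in all libraries, in that Ucp1, the uncoupling protein that defines brown fat, lay between 1357 and 2992 FPKM. The summed level of 10 brown adipocyte markers ran from 6018 to 8267 FPKM. Most of that sum came from Ucp1, Cidea, Cox7a1 and Cox8b, and lower markers varied more. Elovl3, for example, ran from 4.05 FPKM in WT female 1 to 37.0 in KO male 2. KO male 1 stood apart: its rank correlation with the other libraries was 0.924 to 0.934, its 10 lymphocyte markers summed to 246 FPKM against 2.20 to 5.09 in the others, its macrophage markers to 621 against 51.02 to 192, and its dividing-cell markers to 19.0 against 2.85 to 5.14. Skeletal muscle markers, 14 genes, summed to 2683 to 12029 FPKM in the labelled KO libraries and to 462 to 2279 in the labelled WT libraries, and white adipocyte markers to 4.11 to 10.3 against 11.5 to 67.8, with Hoxc10 at 0 in every library. In KO male 1 the muscle sum, 12029 FPKM, was above the brown adipocyte sum, 6393 FPKM. The part of these markers in the differences below was not tested. In bulk tissue, fewer cells of a type and less RNA per cell cannot be told apart.

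**Figure D1:**
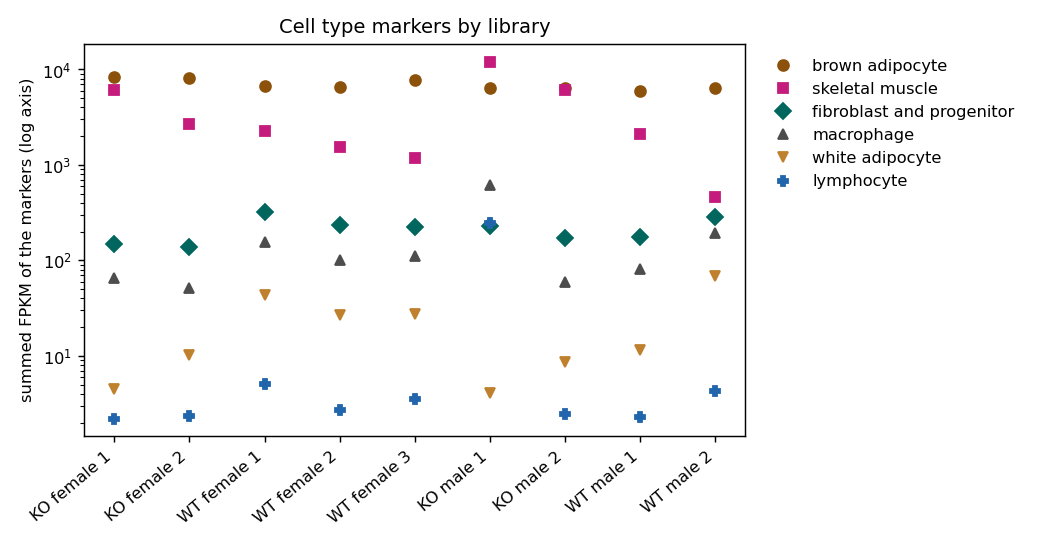
Summed FPKM of the marker genes of 6 cell types (log axis) in each of the 9 libraries. The brown adipocyte sum, mostly from Ucp1, Cidea, Cox7a1 and Cox8b, lies between 6018 and 8267 FPKM. The lymphocyte sum is 246 FPKM in KO male 1 and at most 5.09 in the other libraries.

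The promoters of 4 genes are shown. Klf15, Bcat2 and Ppm1k are 3 of the 6 genes that stood higher in both females labelled KO than in all other libraries. Bckdk did not. Bckdha, Bckdhb and Dbt also had that pattern, and no window of theirs is shown. Each is the 250 bases before a RefSeq gene start on the strand of the gene (build GRCm38.p6), and capitals mark CACCC (or GGGTG, the same letters on the other strand), a core that Krüppel-like factors are known to bind, and CACGTG, the palindromic E-box. The windows are chr6:90462326-90462575 (+) for Klf15, chr7:45569903-45570152 (+) for Bcat2, chr6:57535488-57535737 (-) for Ppm1k and chr7:127903823-127904072 (+) for Bckdk.
Klf15: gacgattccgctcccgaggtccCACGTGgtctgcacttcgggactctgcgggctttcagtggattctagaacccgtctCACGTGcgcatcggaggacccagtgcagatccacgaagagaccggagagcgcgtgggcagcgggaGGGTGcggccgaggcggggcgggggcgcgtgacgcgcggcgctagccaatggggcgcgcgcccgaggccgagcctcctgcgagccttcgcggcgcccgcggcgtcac
Bcat2: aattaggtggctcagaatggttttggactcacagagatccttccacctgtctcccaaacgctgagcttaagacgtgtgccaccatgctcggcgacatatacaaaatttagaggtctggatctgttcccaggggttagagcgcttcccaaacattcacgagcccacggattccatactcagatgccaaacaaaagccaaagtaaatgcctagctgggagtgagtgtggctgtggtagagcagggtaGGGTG
Ppm1k: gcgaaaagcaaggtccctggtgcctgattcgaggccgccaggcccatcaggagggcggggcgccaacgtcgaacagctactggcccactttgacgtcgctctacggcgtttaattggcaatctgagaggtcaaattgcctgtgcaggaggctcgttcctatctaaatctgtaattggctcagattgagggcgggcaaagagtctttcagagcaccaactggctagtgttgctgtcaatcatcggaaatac
Bckdk: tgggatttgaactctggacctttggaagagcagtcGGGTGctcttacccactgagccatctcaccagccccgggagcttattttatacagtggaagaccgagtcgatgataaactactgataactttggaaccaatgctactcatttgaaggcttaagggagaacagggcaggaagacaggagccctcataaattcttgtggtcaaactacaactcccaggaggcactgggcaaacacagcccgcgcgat
The Klf15 window held CACGTG at 2 places and CACCC at 1. The Bcat2 and Bckdk windows held CACCC at 1 place each, and the Ppm1k window held neither motif. A second Bcat2 window, at chr7:45571029-45571278, held neither. Of 9 genes, 7 had a promoter in the table, with 10 windows in all. CACCC was in 6 of the 10 windows, against 52.0% of 32851 promoter windows of the same length, and CACGTG in 1 of the 10, against 6.02%. No matches of the 2 motifs overlapped in the windows shown, and a match describes the letters only.

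The 9 genes spanned a wide range of levels in brown fat. Bckdha was highest, from 251 to 357 FPKM over the 9 libraries with a median of 284.7, and was 2.36 to 2.97 times the level of Bckdhb in the same library. Bckdhb (median 106.7 FPKM) and Bcat2 (median 104 FPKM) came next and did not differ in order, with Bckdhb higher in 5 of 9 libraries. Dbt followed at a median of 51.1 FPKM and was above Bckdk, median 43.4, within each of the 9 libraries, although the ranges of the 2 genes overlapped. Slc25a44 (median 25.1 FPKM) and Klf15 (median 21.2 FPKM) again had no fixed order, Slc25a44 being higher in 6 of 9 libraries. Ppm1k, 7.46 to 13.7 FPKM, was below Klf15 in every library. Bcat1, the cytosolic transaminase, was lowest at 0.0483 to 0.225 FPKM, so that Bcat2 was 470 to 3445 times as high.

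**Figure D2:**
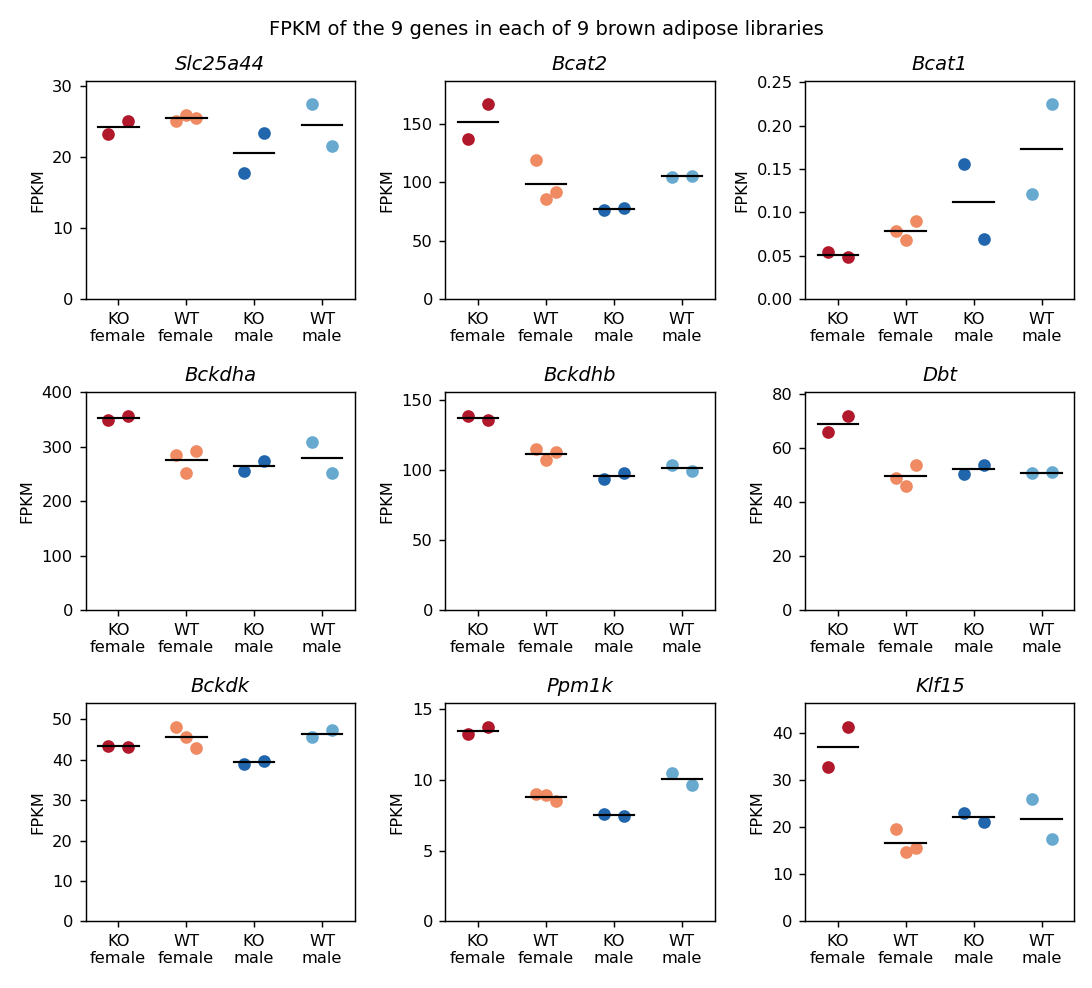
FPKM of the 9 genes (vertical axes, each from 0) in each library, 1 point per mouse, with the group mean as a line. For Bcat2, Bckdha, Bckdhb, Dbt, Ppm1k and Klf15 both females labelled KO lie above all 7 other libraries.

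In females, most of the enzyme genes and the phosphatase stood higher in the libraries labelled KO. In 6 of the 9 genes (Bcat2, Bckdha, Bckdhb, Dbt, Ppm1k and Klf15) both libraries labelled KO lay above all 3 labelled WT, as did 13.8% of all tested genes, and in Bcat1 and Slc25a44 both lay below, as did 26.6%. These 6 were also above all 7 other libraries, males included, as were 4.09% of tested genes. The median log2 difference (labelled KO minus labelled WT) of the 9 genes was 0.36, beside -0.07 over all tested genes. With limma and Benjamini-Hochberg adjustment over all 14675 genes, none of the 9 passed an adjusted p of 0.05, and 3 genes of all tested did (0.0204%). At an unadjusted p under 0.05 the 6 genes passed, all higher in KO, against 4.95% of tested genes higher. The linear model of the methods, without adjustment and at p under 0.01, called Bckdhb, Dbt, Ppm1k and Klf15 higher, against 1.38% of tested genes called higher. Median centring ended the calls of Bckdhb and Dbt, that of Dbt was also lost without KO female 2, and that of Klf15 without each of 6 libraries.

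In males no gene of the set stood higher in KO throughout. In 4 of the 9 genes (Bcat2, Bckdhb, Bckdk and Ppm1k) both libraries labelled KO lay below both labelled WT, as did 28.7% of tested genes, and in none did they lie above, as they did in 10.8%. The median log2 difference of the 9 genes was -0.24, beside -0.08 over all tested genes. None passed the limma adjusted threshold, as against 2 genes of all tested (0.0136%). At an unadjusted p under 0.05, 3 of the 9 genes were lower, against 11.7% of tested genes, and the linear model at p under 0.01 called Bckdk and Ppm1k lower, against 4.27%. Median centring and quantile normalization each ended both calls, and that of Bckdk was also lost without each of 7 libraries, KO male 1 among them.

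**Figure D3:**
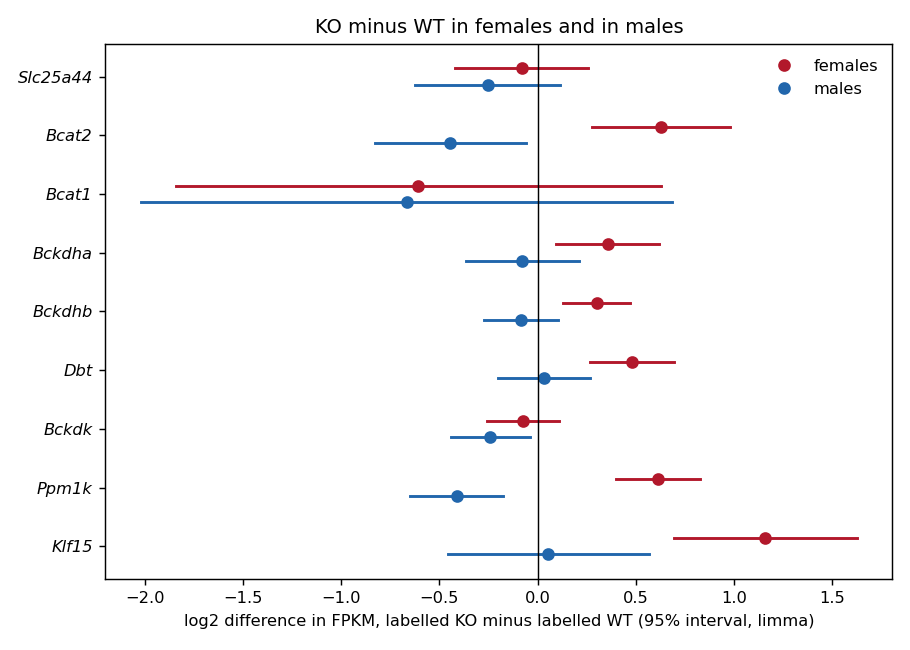
Log2 difference in FPKM, labelled KO minus labelled WT, with 95% limma intervals, in females (red) and males (blue). In females the intervals of Bcat2, Bckdha, Bckdhb, Dbt, Ppm1k and Klf15 lie above 0, and in males those of Bcat2, Bckdk and Ppm1k lie below 0.

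Slc25a44 (chr3:88410498-88425139, minus strand, GRCm38), the mitochondrial carrier that brings branched-chain amino acids to the transaminase, varied little among the females. It stood at 23.2 and 25.1 FPKM in the KO females and at 25.1, 25.9 and 25.5 in the WT females. In males it was 17.7 and 23.4 FPKM in KO and 27.4 and 21.6 in WT, so the groups overlapped. The log2 difference was -0.08 ± 0.15 (SE) in females, which became 0.03 once each library was centred on its median, and -0.25 ± 0.16 in males, with limma adjusted p of 0.867 and 0.499. With 1 library left out the male value ran from -0.45 (without KO male 2) to -0.05 (without KO male 1, the library with the lowest Slc25a44). The 95% intervals ran from -0.42 to 0.26 in females and from -0.63 to 0.12 in males.

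Bcat2 (chr7:45570153-45589711, plus strand), the mitochondrial transaminase, was higher in the females labelled KO and lower in the males labelled KO. It was 136.8 and 166 FPKM in the KO females against 119.0, 85.3 and 91.2 in the WT females, and 76.0 and 78.3 in the KO males against 104 and 106 in the WT males. The groups did not overlap in either sex. On the log2 scale the difference was 0.63 ± 0.15 in females (1.55-fold, limma adjusted p = 0.176) and -0.44 ± 0.17 in the males (0.735-fold, adjusted p = 0.232, limma). Without KO male 1, the male difference was -0.42. The gene 0610005C13Rik overlaps Bcat2 on the other strand, and whether the counting used strand is not given in the sources used here.

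Bcat1 (chr6:144993835-145076184, minus strand), the cytosolic transaminase, was barely detected. KO females had 0.0545 and 0.0483 FPKM and WT females 0.0781, 0.0681 and 0.0898, so the KO females were below. KO males had 0.156 and 0.0693 FPKM and WT males 0.121 and 0.225, which overlap. The log2 differences of -0.61 ± 0.53 and -0.67 ± 0.58 had limma adjusted p of 0.689 and 0.646. These sizes were unstable: with 0.1 added to each FPKM they were -0.24 and -0.36, with 1 added -0.04 and -0.08, and the male value ran from -1.25 without KO male 1 to -0.08 without KO male 2. The number of fragments behind these levels is unknown.

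Bckdha (chr7:25629946-25658981, minus strand), the E1 alpha subunit that carries the phosphorylation sites, was 348.7 and 357 FPKM in the KO females and 284.7, 252 and 291 in the WT females. In the males it was 255 and 273 FPKM in KO and 308 and 251 in WT. Only the females were separated. The difference was 0.36 ± 0.11 (log2) in females (1.28-fold, limma adjusted p = 0.270) and -0.08 ± 0.12 in the males (adjusted p = 0.816, limma).

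Bckdhb (chr9:83925145-84124240, plus strand), the E1 beta subunit, was 138.6 and 135.6 FPKM in the KO females and 114.5, 106.7 and 112 in the WT females. KO males had 93.5 and 97.6 FPKM and WT males 103.8 and 98.8. The KO libraries were thus the higher in females and narrowly the lower in males. KO minus WT was 0.30 ± 0.07 on the log2 scale in females (1.23-fold, limma adjusted p = 0.179) and -0.08 ± 0.08 in the males (adjusted p = 0.677, limma), the latter turning to 0.01 under quantile normalization.

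Dbt (chr3:116513070-116549981, plus strand), the E2 core of the complex, was 66.0 and 72.0 FPKM in the KO females against 48.8, 46.0 and 53.6 in the WT females. The males were at 50.3 and 53.8 FPKM in KO and at 50.7 and 51.1 in WT, and these groups overlapped. The log2 difference was 0.48 ± 0.09 in females (1.40-fold, limma adjusted p = 0.134) and 0.03 ± 0.10 in the males (adjusted p = 0.919, limma). Averaged over the sexes it was 0.26 ± 0.07, with a limma adjusted p of 0.0805 and an exact permutation p of 0.05 with labels permuted within sex (two-sided, 60 arrangements, smallest possible p 0.0167).

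The E3 subunit Dld was 259 to 329 FPKM over the 9 libraries. It was 314 and 329 FPKM in the KO females against 274, 302.6 and 301 in the WT females, a log2 difference of 0.14 ± 0.11 (limma adjusted p = 0.629), and the males overlapped. The 3 subunits specific to the complex kept close proportions: Bckdha was 4.92 to 6.08 times Dbt over the 9 libraries, and Bckdhb 1.81 to 2.35 times Dbt. The shared Dld was 4.57 to 6.58 times Dbt, so close proportions were not particular to the specific subunits.

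Bckdk (chr7:127904082-127910221, plus strand), the inactivating kinase, did not share the female pattern. It was 43.4 and 43.2 FPKM in the KO females and 48.2, 45.6 and 43.0 in the WT females, which overlap. In the males it was 38.9 and 39.7 FPKM in KO and 45.6 and 47.3 in WT, and both KO males were below all 7 other libraries, as for 10.8% of tested genes. Its log2 difference was -0.07 ± 0.08 in females (limma adjusted p = 0.754), which became 0.04 after median centring, and -0.24 ± 0.09 in the males (0.847-fold, adjusted p = 0.217, limma). Averaged over the sexes it was -0.16 ± 0.06, with a limma adjusted p of 0.183 and an exact permutation p within sex of 0.0667. The male value was -0.22 without KO male 1.

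Ppm1k (chr6:57506502-57535468, minus strand), the activating phosphatase, had groups that did not overlap in either sex. It was 13.2 and 13.7 FPKM in the KO females and 9.0, 8.91 and 8.53 in the WT females. It was 7.61 and 7.46 FPKM in the KO males and 10.5 and 9.62 in the WT males. KO females were thus the highest and KO males the lowest of all libraries. The log2 difference was 0.61 ± 0.09 in females (1.53-fold, limma adjusted p = 0.1005) and -0.41 ± 0.10 in the males (0.751-fold, adjusted p = 0.106, limma). The male difference was -0.43 with KO male 1 left out.

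The level of the kinase relative to the phosphatase followed from these values. Bckdk was 3.28 and 3.14 times Ppm1k in the KO females and 4.36 to 5.35 times Ppm1k in all other libraries. In males, the ratio was 5.11 and 5.33 in KO and 4.36 and 4.91 in WT, so that KO was the higher there. These are ratios of transcript levels, and phosphorylation was not measured.

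**Figure D4:**
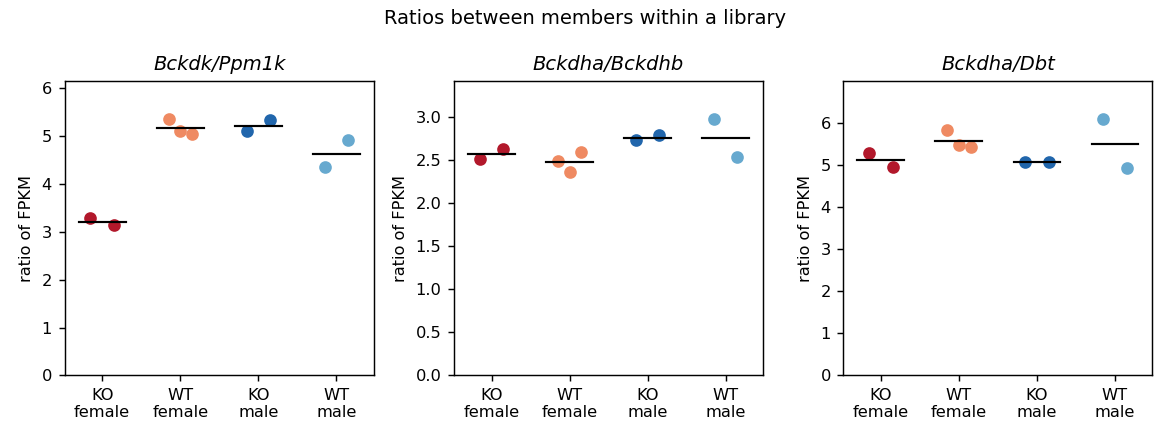
Ratios of FPKM within a library (vertical axes, from 0), 1 point per mouse, with the group mean as a line. Bckdk over Ppm1k is 3.28 and 3.14 in the females labelled KO and 4.36 to 5.35 elsewhere, while Bckdha over Bckdhb stays between 2.36 and 2.97.

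Klf15 (chr6:90462576-90475238, plus strand) showed the widest gap in females among the 9 genes. It was 32.9 and 41.4 FPKM in the KO females and 19.6, 14.7 and 15.7 in the WT females. The KO males, at 23.1 and 21.2 FPKM, lay between the WT males, at 26.0 and 17.5. The log2 difference was 1.16 ± 0.20 in females (2.24-fold, limma adjusted p = 0.121) and 0.06 ± 0.22 in the males (adjusted p = 0.936, limma), with 95% intervals of 0.69 to 1.63 and -0.46 to 0.57. Averaged over the sexes it was 0.61 ± 0.15, with a limma adjusted p of 0.0660 and an exact permutation p within sex of 0.0667. Klf15 is also expressed in skeletal muscle, whose markers summed to 6035 and 2683 FPKM in the KO females, 2279, 1539 and 1189 in the WT females, 12029 and 6158 in the KO males and 2129 and 462 in the WT males. The part of muscle RNA in the Klf15 level was not tested.

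Averaged over the sexes, none of the 9 genes passed the limma adjusted threshold, as against 529 of all tested genes (3.6%), and 6 of the 9 had a difference above 0, against 37.5%. At an unadjusted p under 0.05, Dbt and Klf15 were higher and Bckdk was lower, 3 of 9 genes against 20.2% of tested genes. The linear model at p under 0.01 called Dbt higher, against 2.06% of tested genes, and Bckdk lower, against 5.49%. Both calls ended with median centring, that of Bckdk also with quantile normalization, and leaving out 1 library ended the call of Dbt for 8 of the 9 libraries and that of Bckdk for 7. In no gene did all 4 libraries labelled KO lie on one side of all 5 labelled WT, a pattern held by 3.03% of tested genes upward and 6.04% downward. The exact permutation p within sex was 0.0833 for Bcat1, 0.233 for Slc25a44, 0.25 for Bckdha and Bckdhb, 0.583 for Ppm1k and 0.7 for Bcat2. The females alone, with 10 arrangements, cannot give a permutation p under 0.1, nor the males alone, with 6 arrangements, one under 0.333.

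Whether the difference itself differed between the sexes was tested as the interaction of genotype and sex. The estimate, male difference minus female difference, was below 0 in all 9 genes, with a median of -0.44 beside -0.01 over all tested genes, of which 48.7% lay above 0. The sizes were greatest for Klf15 (-1.10 ± 0.30), Bcat2 (-1.08 ± 0.22) and Ppm1k (-1.03 ± 0.14). The dehydrogenase subunits were nearer to each other, at -0.44 ± 0.17 for Bckdha, -0.39 ± 0.11 for Bckdhb and -0.45 ± 0.14 for Dbt. Bckdk at -0.17 ± 0.12, Slc25a44 at -0.17 ± 0.22 and Bcat1 at -0.06 ± 0.79 had intervals that included 0. No gene of the 14675 passed the limma adjusted threshold, while 1028 had an unadjusted p under 0.05 (7.01%) and the linear model called 244 at p under 0.01. The limma adjusted p was 0.438 for Ppm1k, 0.614 for Bcat2, and 0.624 for Bckdhb and Klf15. At an unadjusted p under 0.05, 6 of the 9 genes passed, all with the lower value in males, against 5.03% of tested genes. The linear model at p under 0.01 called Bcat2, Bckdhb and Ppm1k, against 1.44% of tested genes in that direction. The call of Bcat2 ended with median centring and without each of 8 libraries, that of Bckdhb with median centring and quantile normalization, and that of Ppm1k in none of these. In these 3 genes, KO females were above all WT females and KO males below all WT males, as in 2.58% of tested genes. Without KO male 1, the values for Bcat2, Bckdhb and Ppm1k were -1.05, -0.35 and -1.04.

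**Figure D5:**
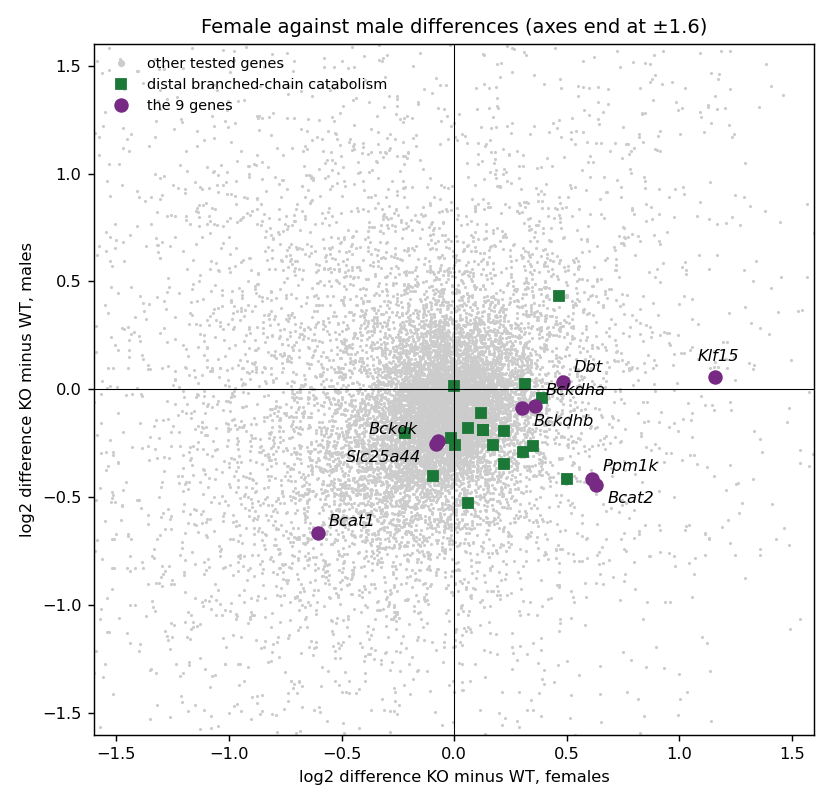
Log2 difference, labelled KO minus labelled WT, in females (horizontal) and males (vertical) for all tested genes within the axes (grey), 19 genes of distal branched-chain catabolism (green) and the 9 genes (purple). Bcat2 and Ppm1k lie in the lower right, and Klf15 lies at 1.16 in females and 0.06 in males.

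The steps after the dehydrogenase were followed in a list of 19 genes. These encode enzymes that carry the ketoacid products to acetyl-CoA and succinyl-CoA, and include Mmaa and Mmab, which handle the cobalamin cofactor. In females 16 of the 19 had a difference above 0, against 39.8% of tested genes, with a median log2 difference of 0.13, and in males 16 of the 19 had one below 0, with a median of -0.20, while 39.9% of tested genes were above 0. The interaction was below 0 in 17 of the 19. Averaged over the sexes, 1 of the 19 passed the limma adjusted threshold, against 3.6% of all tested genes. The gene was Mcee, the methylmalonyl-CoA epimerase, which rose in the average over the sexes. It was 169 and 171 FPKM in the KO females, 150.4 and 146 in the KO males, 125.9, 108 and 137 in the WT females, and 110.2 and 109 in the WT males. All 4 libraries labelled KO were above all 5 labelled WT, as in 3.03% of tested genes. The log2 difference was 0.45 ± 0.08 (limma adjusted p = 0.0348). The call was lost after median centring (limma adjusted p = 0.071), with no filter on low values (limma adjusted p = 0.0507), without the mean-variance trend (limma adjusted p = 0.0757), without KO male 1 (limma adjusted p = 0.0506) and without each of 6 other libraries. Aldh6a1, the methylmalonate semialdehyde dehydrogenase of the valine branch, had a log2 difference of 0.06 ± 0.09 in females and -0.53 ± 0.10 in males (limma adjusted p = 0.831 and 0.0745). Auh, an enoyl-CoA hydratase of the leucine branch, had -0.22 ± 0.08 and -0.20 ± 0.09 (limma adjusted p = 0.337 and 0.326).

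Entry at the plasma membrane was followed in 8 transporter genes, 7 of them tested. Slc7a6, a y+L system light chain, fell in the average over the sexes. It was the 1 of the 7 that passed, against 3.6% of all tested genes. It was 7.61 and 6.98 FPKM in the KO females, 6.16 and 7.74 in the KO males, 12.5, 13.5 and 13.5 in the WT females, and 10.1 and 14.2 in the WT males. All libraries labelled KO were below all labelled WT, as in 6.04% of tested genes. The log2 difference was -0.82 ± 0.12 (limma adjusted p = 0.0293). This call was lost after median centring (limma adjusted p = 0.0585), without the trend (limma adjusted p = 0.0629) and without each of 6 libraries, KO male 1 not among them. Slc7a8, the light chain LAT2, had 0.37 ± 0.18 in females and -1.05 ± 0.20 in males (limma adjusted p = 0.449 and 0.0785), and Slc43a2 had -0.14 ± 0.23 and -0.19 ± 0.25.

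Other 2-oxoacid dehydrogenase genes were followed beside these. Over all tested genes, 39.8% had a difference above 0 in females and 39.9% in males. Of 8 genes for E3 and for the subunits of related complexes, such as pyruvate dehydrogenase, 7 had a difference above 0 in females and 7 one below 0 in males, none past the adjusted threshold. The interaction was below 0 in all 8, with a median of -0.34, while 48.7% of tested genes were above 0. Pdhb had 0.46 ± 0.22 in females and 0.13 ± 0.24 in males, Pdha1 had 0.28 ± 0.15 and -0.07 ± 0.16, and Dhtkd1, a subunit for 2-oxoadipate, had -0.05 ± 0.24 and -1.26 ± 0.27. Of 7 kinases and phosphatases of the pyruvate dehydrogenase complex and their regulator, 3 were above 0 in females and 3 in males, again none past the threshold. Pdp1 had 0.07 ± 0.18 in females and 0.54 ± 0.19 in males, Pdk1 had 0.36 ± 0.16 and 0.05 ± 0.18, and Pdk2 had 0.24 ± 0.09 and -0.04 ± 0.10.

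Regulators of the kinase and phosphatase, with their other known substrate, and glucocorticoid-responsive genes were also followed. None of 7 genes that include Mlxipl (which encodes ChREBP) and Acly (ATP-citrate lyase) passed in any comparison, and 6 had a difference above 0 in females and 2 in males. Averaged over the sexes, Ppara had -0.31 ± 0.10, Ppargc1a 0.49 ± 0.31 and Acly 0.37 ± 0.27. Of 11 glucocorticoid-responsive genes, the hormone class under which Klf15 is known to be induced, 6 were above 0 in females and none in males. For both lists the share over all tested genes was 39.8% in females and 39.9% in males. Fkbp5 was 1.16 and 1.78 FPKM in the KO females and 1.54, 1.36 and 1.32 in the WT females, and 5.79 and 1.68 in the KO males and 8.31 and 8.03 in the WT males, while Sgk1 and Per1 had averages of -0.60 ± 0.21 and -0.49 ± 0.20. None of the 11 passed.

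Of 7 amino acid genes linked to Klf15, 4 were tested. Prodh, proline dehydrogenase, was higher in KO than in WT females and lower in KO than in WT males, with no overlap in either sex. The same pattern was held by 2.58% of tested genes. It was 21.2 and 27.5 FPKM in the KO females and 13.5, 12.2 and 12.7 in the WT females, and 15.6 and 15.9 in the KO males and 26.2 and 23.4 in the WT males. Its log2 difference was 0.92 ± 0.13 in females and -0.65 ± 0.14 in males (limma adjusted p = 0.0786 and 0.0896). Glul, glutamine synthetase, had 0.52 ± 0.15 and -0.57 ± 0.16 (limma adjusted p = 0.238 and 0.136), and Gpt, alanine transaminase, -0.07 ± 0.12 and -0.57 ± 0.13. None of the 4 passed.

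Genes whose levels ran most nearly parallel to the kinase, phosphatase and regulator were sought among 10877 genes with a mean of at least 1 FPKM, by Pearson correlation of log2 FPKM over the 9 libraries. For Bckdk these were Hagh (r = 0.976), Gpx3 (r = 0.965) and Sqrdl (r = 0.964). For Ppm1k they were Fdxr (r = 0.945), Gcdh (r = 0.943) and Tarbp2 (r = 0.937). For Klf15 they were Pctp (r = 0.966), Hpd (r = 0.943) and Gm15471 (r = 0.927). The 9 libraries share their groups and scaling, and these values describe likeness of pattern only.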

How the data were processed

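The authors deposited FPKM by gene symbol for 9 brown adipose libraries. The values were made from paired-end poly A+ reads with bcl2fastq 1.8.4, TopHat 2.0.11 and Bowtie on mm10 (GRCm38), and the annotation and the use of strand are not given in the sources used here. Fragment totals are unknown, but depth relative to WT female 1, read from the lowest values, was 0.917 to 1.14, and FPKM summed to 380558 to 443569. Log2 FPKM of the 14675 genes above 0 in all 9 libraries were fitted with limma 3.58.1 in R 4.3.3 (1 mean per group, mean-variance trend, Benjamini-Hochberg adjustment over all genes). The linear model of the methods (unadjusted, p under 0.01) was an alternative. Single genes were also tested by exact permutation within sex (Python 3.11.15). Other pseudocounts, filters, scalings and left-out libraries were tried. Named beside the 9 genes are Dld, the 3 genes most like Bckdk, Ppm1k and Klf15, the 3 genes with the lowest average p in each pathway list, and any list gene past the threshold. The genes and lists were chosen with earlier results of these data known. No pair of libraries held identical values. GENCODE M21 gave gene positions, and RefSeq (GRCm38.p6) gave promoter sequences.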

Additional observations from a re-analysis of the deposited data

Results flagged for a closer look

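The effect of genotype differed between females and males for 3 of the 9 genes in the linear model of the methods, which called 1.44% of tested genes in that direction. The interaction estimate (male minus female log2 difference) was -1.08 for Bcat2, -0.39 for Bckdhb and -1.03 for Ppm1k, each with an unadjusted p under 0.01, and in each the females labelled KO were above and the males labelled KO below every WT library of their sex, as in 2.58% of tested genes. Median centring left the call of Ppm1k alone, quantile normalization also ended that of Bckdhb, and that of Bcat2 was lost without each of 8 of the 9 libraries, KO male 1 among them. With limma and adjustment over all genes, none of the 3 passed, with adjusted p of 0.614, 0.624 and 0.438. Of 18 groups of 4 or more libraries examined for a single library far from the rest, over the 9 genes with the sexes joined, 0 held one. Where KO females and KO males lie apart, as for Ppm1k, this search could hardly find one, so it says little there.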

How the results depend on the processing

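Each of the 36 differences of the 9 genes was recomputed under 8 other settings and with each of the 9 libraries left out. Of 608 values in all, 583 kept direction and side of the threshold, 13 came to pass the threshold of their setting and 12 changed sign. That threshold was an unadjusted p under 0.01 for the linear model and a limma adjusted p under 0.05 for the rest. The linear model gave most of the 13, with 4 in females, 2 in males, 2 on average and 3 for the interaction. Median centring, which adds 0.109 to every log2 difference in females, 0.00755 in males and -0.101 to the interaction, turned the female values of Bckdk to 0.0355 and Slc25a44 to 0.0289. Quantile normalization turned the male value of Bckdhb to 0.0137. With 1 library left out, the male values ran from -0.23 to 0.0707 for Bckdha, -0.0160 to 0.0804 for Dbt and -0.23 to 0.34 for Klf15, and the interaction from -0.64 to 0.52 for Bcat1 and -0.37 to 0.0252 for Slc25a44.

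Limma called 3 genes of all tested in females, but 11 with a mean of at least 1 FPKM, 0 without the trend and 0 to 19 with a library left out. In males it called 2, but 0 with pseudocount 1, 1 without a filter, 19 with a mean of at least 1 FPKM, 1 with quantile normalization, 0 without the trend and 0 to 1293 with a library left out (1293 without KO male 2). On average it called 529 (210 higher), but 170 without a filter, 222 with median centring (130 higher), 444 with quantile normalization (228 higher), 34 without the trend and 8 to 1105 with a library left out. For the interaction it called 0, and 0 to 721 with a library left out. The unadjusted linear model called 503, 777, 1107 and 244 genes, and 4, 2, 2 and 3 of the 9. Limma called 0 of the 9 in females and males whichever library was left out, and 0 to 1 on average (Klf15, 0.75, adjusted p = 0.0293, without WT male 1) and for the interaction (Ppm1k, adjusted p = 0.0222, without KO male 2). An arm left with 1 library was assumed to vary like the others.

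Alternatives chosen after the data were seen were these. The linear model called 2 of the 9 in females, 0 in males, 0 on average and 1 for the interaction with median centring, and 0 in males with quantile normalization. With a library left out, it called 2 to 5, 1 to 2, 0 to 2 and 2 to 3. The count of genes with KO above WT in females was 6 in every setting, beside 13.8% to 25.7% of all tested genes, and that with KO below WT in males was 2 with median centring (21.7%) and 5 to 7 with a library left out (37.1% to 60.8%; 7 without WT male 2). With labels permuted over all 9 libraries, Bckdk (-0.15, exact permutation p = 0.0317) and Klf15 (0.64, exact permutation p = 0.0476) came to pass 0.05. Of 204 alternative values for the 12 list genes past the threshold, 124 no longer passed and 0 changed sign, with adjusted p of 0.0290 to 0.134 for Mcee and 0.00912 to 0.130 for Slc7a6. No paired analysis was possible because the labels carry animal numbers and no replicate number shared between groups. The depth behind low levels such as Bcat1 is unknown.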

Other observations

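Of 80 tested genes of the cell type marker lists, 10 passed the limma adjusted threshold averaged over the sexes (12.5%, against 3.6% of all tested genes). Among skeletal muscle markers Acta1, Myh1 and Mylpf were higher in libraries labelled KO, by 2.29, 1.98 and 2.36 on the log2 scale. Lep, the leptin gene that marks white adipocytes, fell by 3.21, Cd163 of macrophages fell by 0.92, and the matrix genes Col1a1, Col1a2, Col3a1 and Lum fell by 1.10, 1.06, 1.03 and 1.22. Hbb-bs, a beta-globin gene with near-identical copies that can share its reads, fell by 9.56. It was 0.00376 and 0.00366 FPKM in the KO females, 4.70 and 0.00356 in the KO males, and 9.67 to 32.3 in the WT libraries. The source of this difference was not tested. A difference above 0 was held by 39.8% of all tested genes in females and by 39.9% in males. All 14 muscle markers were above 0 in both sexes, while 9 of 9 tested lymphocyte markers were above 0 in males and 2 of 9 in females. The male count was 4 of 9 without KO male 1, an alternative chosen after the data were seen. Of 8 endothelial markers, 4 were above 0 in females and 0 in males, and of 9 tested markers of dividing cells 1 was above 0 in females and 9 in males, or 3 in males without KO male 1. Of 6 tested red blood cell markers, 1 was above 0 in females and 0 in males. The 10 brown adipocyte markers had 6 above 0 in females and 3 in males, with or without KO male 1. Their median log2 differences were 0.10 in females and -0.35 in males, and the interaction was below 0 in 8 of them. Among 5 tested white adipocyte markers, 1 was above 0 in females and 0 in males. Of 9 fibroblast and progenitor markers, 0 were above 0 in females and 3 in males, or 1 without KO male 1. Among 10 macrophage markers, Cd163 included, 0 were above 0 in females and 6 in males, or 0 in males without KO male 1.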
